A study of Mus musculus with 6 samples.

Results

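The 9 genes described here encode the core proteins of non-homologous end joining and those that steer a DNA break towards it: Xrcc5, Xrcc6, Prkdc, Dclre1c, Xrcc4, Lig4, Nhej1, Trp53bp1 and Rif1. They were taken by gene symbol from a table of 15168 genes, and all 9 symbols were present. Counts were compared between macrophages of aged and young Day 3 wounds, with 3 samples in each group. Both groups came from full-thickness dorsal skin wounds of female C57BL/6J wild-type mice, aged 12 weeks (young) or 24 months (aged), and live macrophages were sorted on CD45, CD11b, F4/80 and CD64. The samples carry the set letters A, B and C in each group. The sources used here do not say whether a sample came from 1 mouse or from pooled mice, so p-values measure the spread between these samples only.

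Non-homologous end joining rejoins the 2 ends of a broken DNA double strand without a template, and can therefore act in cells that are not dividing. The Ku70 and Ku80 proteins form a ring that slides onto each end and recruits the kinase DNA-PKcs, which activates the nuclease Artemis. XRCC4, XLF and DNA ligase IV then align and seal the ends. 53BP1 and its partner RIF1 protect the ends from resection, which would otherwise commit the break to homologous recombination, a repair route of dividing cells. The same joining machinery completes antigen receptor gene rearrangement in lymphocytes.

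Aged macrophages held less Xrcc6 and less Dclre1c mRNA than young macrophages. Xrcc6, which encodes Ku70, was at 37.3% of its young level, and Dclre1c, which encodes Artemis, at 54.2%. None of the other 6 members tested passed, and Xrcc5 was counted too rarely to be tested. A gene passed at an adjusted p under 0.05 in the quasi-likelihood test of edgeR, adjusted over 11878 tested genes, and of these 7.97% passed as lower and 9.73% as higher in aged macrophages. Of the 8 members tested, 2 (25.0%) passed as lower and 0 as higher. Fits that left out 1 sample gave 1 to 2 members, and 218 to 2702 genes passing in either direction. The count of members at an unadjusted p under 0.05 was also 2, against 4101 of the 11878 tested genes in either direction.

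The promoters shown first are those of the 2 genes that fell, and that of Xrcc5, the partner of Xrcc6 in the Ku ring. Each window runs from 250 bases before to 50 bases after the start site in RefSeq (GRCm38.p6), on the plus strand, written 5′ to 3′ with motif matches in capitals. The windows are chr15:82016119-82016418 for Xrcc6, chr2:3423881-3424180 for Dclre1c and chr1:72307171-72307470 for Xrcc5.
Xrcc6: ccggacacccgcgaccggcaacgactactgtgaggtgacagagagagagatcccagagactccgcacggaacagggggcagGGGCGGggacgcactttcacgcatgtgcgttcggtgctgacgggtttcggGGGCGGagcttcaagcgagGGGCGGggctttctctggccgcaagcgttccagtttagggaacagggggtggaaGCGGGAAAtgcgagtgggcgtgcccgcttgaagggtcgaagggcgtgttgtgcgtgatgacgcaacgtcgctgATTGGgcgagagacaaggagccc
Dclre1c: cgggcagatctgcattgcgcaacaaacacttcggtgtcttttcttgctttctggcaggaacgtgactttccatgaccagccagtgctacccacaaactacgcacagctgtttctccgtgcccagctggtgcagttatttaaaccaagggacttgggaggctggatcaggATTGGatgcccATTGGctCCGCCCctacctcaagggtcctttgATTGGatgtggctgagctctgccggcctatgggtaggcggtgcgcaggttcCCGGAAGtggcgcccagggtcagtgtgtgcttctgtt
Xrcc5: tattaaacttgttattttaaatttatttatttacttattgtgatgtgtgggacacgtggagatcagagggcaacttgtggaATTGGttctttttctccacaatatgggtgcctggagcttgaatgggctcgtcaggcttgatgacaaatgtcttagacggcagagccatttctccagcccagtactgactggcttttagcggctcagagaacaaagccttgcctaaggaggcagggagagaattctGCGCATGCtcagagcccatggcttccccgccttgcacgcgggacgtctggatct
Letters searched on both strands were TTTCCCGC, TTTGGCGC or TTTCGCGC for E2F, a factor of S phase genes, GCATGCGC for NRF1, CCAAT for the CCAAT box, GGGCGG for Sp1 and CCGGAAG for ETS factors. The capitals in the Xrcc6 window are 3 Sp1 words, the E2F word at -46 from the start site and 1 CCAAT box at 28. The Dclre1c window holds 3 CCAAT boxes, 1 Sp1 word and 1 ETS word, and the Xrcc5 window 1 CCAAT box and 1 NRF1 word.

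Promoter windows were matched for 7 of the 9 members, with 2 windows for Lig4, and none for Prkdc and Rif1. The E2F word was found in 1 of these 8 windows, that of Xrcc6, against 1.85% of 32851 mouse promoter windows of the same length. Sp1 words were in 6 of the 8 windows (35.7% of all windows), ETS words in 4 (8.86%), CCAAT boxes in 3 (37.4%) and NRF1 words in 2 (2.71%), those of Xrcc5 and the second window of Lig4. In that second Lig4 window the 2 NRF1 matches overlap each other. Dclre1c, the other gene that fell, held no E2F word in its window. These are matches of letters only, and the shares were not tested against each other. The members and motifs were chosen with earlier results of these data known.

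**Figure D1:**
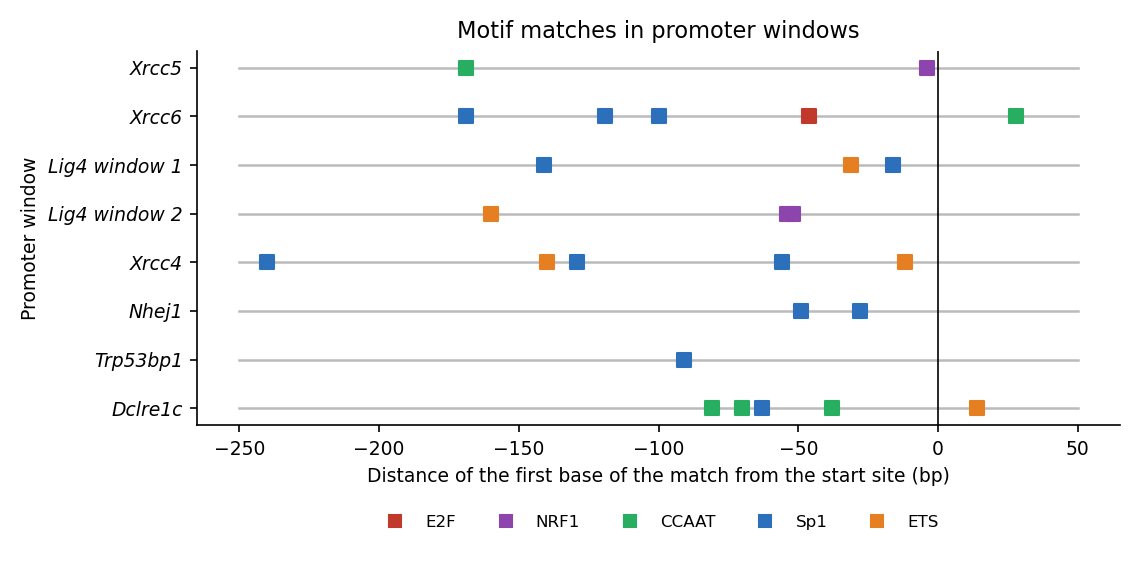
Motif matches in 8 promoter windows of 7 members, with distance from the RefSeq start site in base pairs on the x axis, 1 row for each window and 1 square for each match, coloured by motif. The only E2F match lies at -46 in the Xrcc6 window, and Sp1 matches occur in 6 of the 8 windows.

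Xrcc6 (chr15:81987835-82040085, plus strand, mm10) was counted at 8.74, 10.0 and 9.25 CPM in young samples A, B and C, where CPM stands for the counts in 1000000 of the scaled library. In aged samples A, B and C it was at 3.29, 3.88 and 3.27 CPM. The highest aged sample stood well under the lowest young sample, and the 3 samples of each group lay close together. The young mean was 9.34 ± 0.651 CPM and the aged mean 3.48 ± 0.348 CPM (SD, n = 3 each). The log2 fold change was -1.42 (SE 0.23, 95% interval -1.94 to -0.90), with an adjusted p of 0.00656 by edgeR. It was the only member lower by over 2-fold at that threshold, which 4.2% of tested genes met. Leaving out each sample in turn kept Xrcc6 under the threshold in 6 of 6 fits, with the highest adjusted p, 0.0446, without young sample C. The start site of the promoter shown lies inside the span that the authors' annotation gives to Xrcc6.

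Dclre1c (chr2:3424131-3464130, plus strand) was at 22.5, 35.7 and 32.1 CPM in young samples A, B and C. In aged samples A, B and C it was at 14.0, 16.6 and 18.3 CPM. The groups did not overlap, but young sample A lay nearer to the aged samples than to the other young ones. The mean level was 30.1 ± 6.86 CPM when young and 16.3 ± 2.15 CPM when aged. The log2 fold change was -0.88 (SE 0.21, 95% interval -1.35 to -0.41), with an adjusted p of 0.0218 by edgeR. The call was kept in 2 of 6 fits that left out 1 sample, and lost without young B (0.0801), young C (0.0992), aged A (0.0582) or aged C (0.0612). Xrcc6 and Dclre1c were the 2 members tested with every aged sample below every young sample, a separation seen in 19.0% of tested genes.

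Xrcc5 (chr1:72307427-72394952, plus strand) encodes Ku80, without which Ku70 cannot form the ring. Young samples A, B and C held 10, 4 and 9 counts of it, and aged samples A, B and C held 1, 13 and 6. With 23 young and 20 aged counts in all, the ratio of aged to young CPM was 0.947, with a 95% interval of 0.493 to 1.80 that covers counting error only. A change of the size seen in Xrcc6 (a ratio of 0.373) lies outside that interval, but the spread between samples was wider than counting alone gives: aged A was the lowest and aged B the highest of the 6 samples. Xrcc5 did not pass the filter on low counts.

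**Figure D2:**
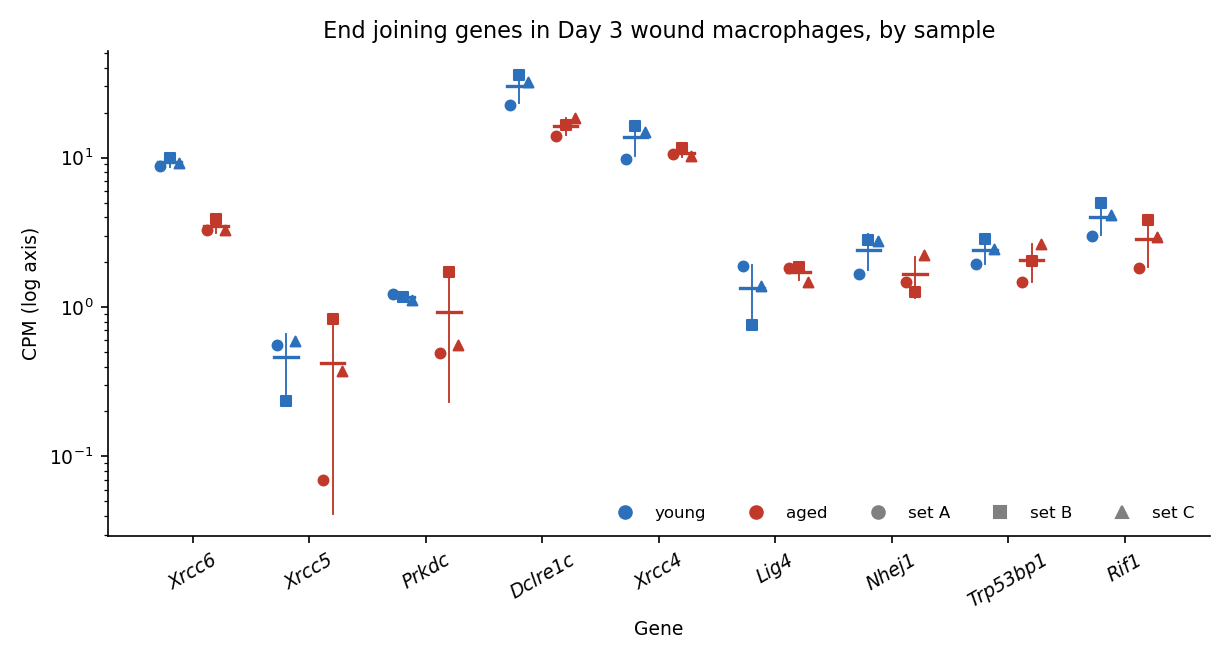
CPM of the 9 genes in each of 6 samples on a log axis, with young samples in blue, aged samples in red, the set letter as the symbol, horizontal lines at the group mean and vertical lines of 1 SD either side (n = 3). The groups overlap for every gene except Xrcc6 and Dclre1c, and Xrcc5 lies under 1 CPM in all 6 samples.

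Prkdc (chr16:15637866-15842235, plus strand), which encodes the kinase DNA-PKcs, was at 1.22, 1.17 and 1.12 CPM in young samples A, B and C. In aged samples A, B and C it was at 0.49, 1.72 and 0.556 CPM. Aged A and aged C lay below every young sample and aged B above all of them. The SD was 0.047 CPM among young and 0.692 CPM among aged samples, a difference in spread that was not tested. These values rest on 22, 20 and 17 counts in young samples A, B and C and 7, 27 and 9 in aged ones. The log2 fold change of Prkdc was -0.34 (SE 0.55, 95% interval -1.55 to 0.87, adjusted p 0.694 by edgeR). It was -1.14 without aged B (adjusted p 0.210), -0.04 without aged A (0.968) and -0.07 without aged C (0.958). Aged B was also the highest sample for Xrcc5, and it stood apart from the other libraries in keratinocyte and fibroblast genes, as given below.

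Xrcc4 (chr13:89774027-90089608, minus strand), the scaffold on which the ligase sits, was at 9.79, 16.4 and 14.9 CPM in young samples A, B and C. Its aged samples lay at 10.6, 11.6 and 10.2 CPM, between young A and the other young samples. The log2 fold change was -0.34 (SE 0.23, 95% interval -0.85 to 0.17, adjusted p 0.325 by edgeR). Lig4 (chr8:9969049-9977686, minus strand) encodes DNA ligase IV, which seals the strands, and was at 1.88, 0.763 and 1.39 CPM in young samples A, B and C. Its aged samples A, B and C lay at 1.82, 1.85 and 1.48 CPM, inside the young range. Lig4 was the one tested member with a fold change above 0, at 0.35 on the log2 scale (SE 0.43, 95% interval -0.61 to 1.31, adjusted p 0.603 by edgeR).

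Nhej1 (chr1:74967139-75125200, minus strand) encodes XLF, which bridges the ends together with XRCC4. It was at 1.66, 2.82 and 2.77 CPM in young samples A, B and C and at 1.47, 1.27 and 2.22 CPM in aged samples A, B and C. Aged A and aged B lay below every young sample, and aged C within the young range. Its log2 fold change was -0.54 (SE 0.40, 95% interval -1.42 to 0.34, adjusted p 0.364 by edgeR).

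Trp53bp1 (chr2:121193281-121271407, minus strand) encodes 53BP1, the chromatin reader that shields the ends. Its values were 1.94, 2.87 and 2.44 CPM in young samples A, B and C and 1.47, 2.04 and 2.66 CPM in aged samples A, B and C, with 2 aged samples inside the young range. The log2 fold change was -0.23 (SE 0.37, 95% interval -1.04 to 0.59, adjusted p 0.693 by edgeR). Rif1 (chr2:52072832-52122383, plus strand) encodes the effector that 53BP1 recruits once phosphorylated. Its values were 2.99, 4.99 and 4.10 CPM in young samples A, B and C and 1.82, 3.82 and 2.96 CPM in aged samples A, B and C. The log2 fold change of Rif1 was -0.48 (SE 0.35, 95% interval -1.27 to 0.30, adjusted p 0.363 by edgeR), and 2 aged samples lay below all young ones.

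**Figure D3:**
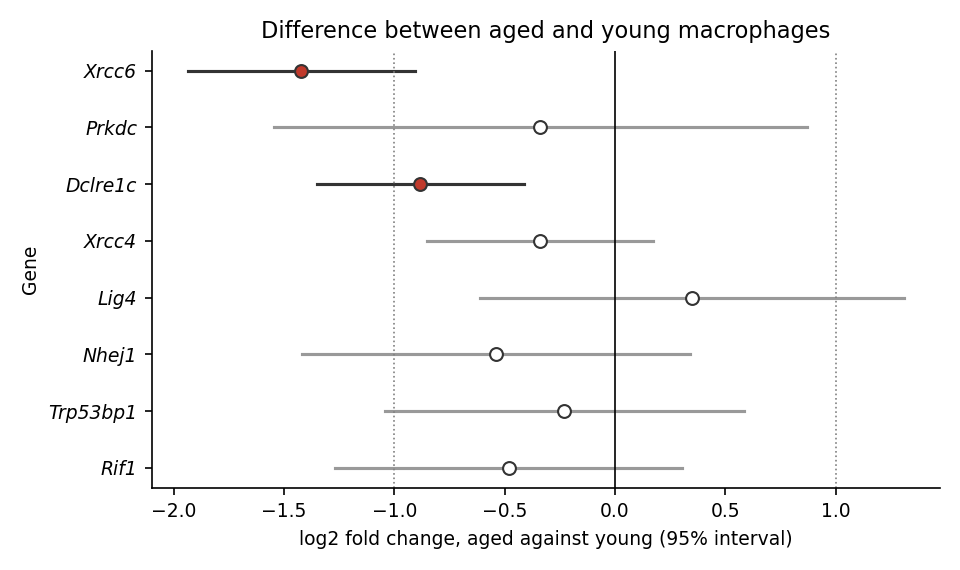
Log2 fold change of aged against young macrophages (points) with its 95% interval (lines) for the 8 members tested, with filled points at an adjusted p under 0.05 by edgeR and dotted lines at a 2-fold change either way. Only the intervals of Xrcc6 and Dclre1c stay below 0, and 7 of the 8 points lie below 0.

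Of the 8 members tested, 7 had a log2 fold change below 0, with a median of -0.41. Over all tested genes the median was -0.02 and 51.2% lay below 0. Young sample B was the highest of the 6 samples for 6 members (Xrcc6, Xrcc4, Nhej1, Trp53bp1, Dclre1c and Rif1) and aged A the lowest for 5 (Xrcc5, Prkdc, Trp53bp1, Dclre1c and Rif1). How often each sample was the highest or lowest over all tested genes was not counted, so these counts have no background to compare with. For 4 of the 6 tested members that did not pass (Prkdc, Nhej1, Trp53bp1 and Rif1) the 95% interval holds a 2-fold fall. That of Lig4 holds a 2-fold rise, and that of Xrcc4 holds neither.

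Levels of different genes were set side by side as counts per kilobase of the median annotated transcript, scaled to sum to 1000000 over all genes with a length. On this scale the young levels were 15.1 ± 3.49 for Dclre1c, 15.0 ± 3.79 for Xrcc4 and 13.6 ± 1.32 for Xrcc6, which did not differ beyond their spread. Nhej1 at 4.64 ± 1.21 and Trp53bp1 at 3.47 ± 0.732 followed, also with overlapping samples, and then Rif1 at 1.55 ± 0.408. Lig4 (0.355 ± 0.152), Xrcc5 (0.192 ± 0.0780) and Prkdc (0.161 ± 0.0142) were the lowest. In aged macrophages Xrcc4 led at 10.7 ± 1.18, with samples that did not overlap those of Dclre1c at 7.39 ± 1.04, and all aged samples of Dclre1c lay above those of Xrcc6 at 4.58 ± 0.677. The aged samples of Xrcc6 lay in turn above those of Nhej1 at 2.86 ± 0.784. The order depends on the transcript length used. With the longest transcript Trp53bp1 dropped to 0.495 ± 0.103 in young macrophages, under Lig4 at 0.526 ± 0.229. By mean, Dclre1c, Xrcc4 and Xrcc6 were still the 3 highest of the young levels and Xrcc5 and Prkdc the lowest. Young samples of Xrcc6 and Nhej1 overlapped on that scale, as did those of Xrcc5, Trp53bp1 and Lig4. In aged macrophages the order of Xrcc6 and Nhej1 turned over with the longest transcript, to 1.97 ± 0.304 for Xrcc6 and 2.89 ± 0.761 for Nhej1, again with samples that did not overlap.

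Partners that work as one machine were compared by their log2 ratio within each sample. A set of 6 ratios was tested with a two-sided exact permutation test, for which 3 samples against 3 allow no p under 0.1. The ratio of Xrcc6 to Xrcc5, the 2 subunits of Ku, was 4.08 ± 0.644 in young and 3.00 ± 1.05 in aged macrophages (log2, exact p = 0.3), with aged A inside the young range. Xrcc5 had only 1 count in aged A and at most 13 in any sample, so this ratio carries much counting error. The ratio of Lig4 to Xrcc4 was -3.28 ± 0.956 in young and -2.57 ± 0.107 in aged macrophages (exact p = 0.4). The other differences, aged minus young, were 0.35 for Prkdc against the mean of the Ku genes, -0.21 for Nhej1 against Xrcc4, -0.26 for Rif1 against Trp53bp1 and -0.36 for Dclre1c against Prkdc, with exact p-values of 0.3 to 0.6. All 6 had a Benjamini-Hochberg adjusted p of 0.6, and in each of the 6 ratios the groups overlapped. Leaving out 1 sample moved the difference in Lig4 to Xrcc4 between 0.237 (without young B) and 1.19 (without young A), and that in Xrcc6 to Xrcc5 between -0.622 (without aged B) and -1.65 (without aged A).

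Genes that assist the core proteins were read from a list of their own. Over all tested genes, 9.73% passed as higher and 7.97% as lower, for comparison with the counts of this and the following lists. Of 11 accessory end joining factors tested, 1 rose and 0 fell. At an unadjusted p under 0.05 in edgeR, 1 was higher and 2 lower, against 4101 of all 11878 tested genes in either direction. Wrn, which encodes the Werner helicase and exonuclease, rose from 4.02 ± 0.0688 to 6.82 ± 0.393 CPM (log2 fold change 0.76, SE 0.23, adjusted p 0.0480 by edgeR), a call lost in 11 of 15 alternative fits, including all 6 that left out 1 sample. The lowest of the list was Aplf, an accessory factor bound to XRCC4, at -1.07 (SE 0.43, adjusted p 0.110). The median of the list was -0.18.

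Among 12 genes of the 53BP1 pathway and of break-site chromatin, 3 fell, 1 rose, and the median was -0.15. Those that fell were Shld1, Shld3 and Mad2l2, which encode subunits of shieldin, the complex that RIF1 brings to the break to block resection. Shld1 fell from 6.03 ± 1.99 to 2.28 ± 0.507 CPM (log2 fold change -1.40, SE 0.34, adjusted p 0.0234 by edgeR). Shld3 fell from 3.18 ± 1.15 to 1.25 ± 0.0751 CPM (log2 fold change -1.34, SE 0.38, adjusted p 0.0385 by edgeR). Mad2l2, whose protein REV7 also serves in other complexes, fell from 13.9 ± 1.66 to 7.27 ± 1.25 CPM (log2 fold change -0.94, SE 0.22, adjusted p 0.0207 by edgeR). Shld2, the remaining subunit, was at -0.60 (SE 0.38, adjusted p 0.297). Kmt5a, which encodes the enzyme that adds the first methyl group to H4K20, rose from 53.3 ± 8.78 to 89.6 ± 11.3 CPM (log2 fold change 0.75, SE 0.18, adjusted p 0.0218 by edgeR). Of the 15 alternative fits, the calls of Shld1, Mad2l2 and Kmt5a were each kept in 11 and that of Shld3 in 8. All 4 calls were lost without young B, young C or aged C, with adjusted p-values of 0.0507 to 0.145. Those of Shld1 and Shld3 were also lost without aged A (0.0524 and 0.0820), and those of Shld3 and Kmt5a without aged B (0.0720 and 0.0544).

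Of 9 genes that sense and signal breaks, 1 fell and 0 rose. Parp1, which encodes the enzyme that marks broken DNA with poly(ADP-ribose), fell from 35.5 ± 13.4 to 16.1 ± 2.30 CPM (log2 fold change -1.14, SE 0.27, adjusted p 0.0218 by edgeR), a call lost without young B (0.0802), young C (0.0930), aged A (0.0571) or aged C (0.0804). The highest of the list was the acetyltransferase gene Kat5 at 0.37 (SE 0.22, adjusted p 0.248), and the median was -0.58.

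The competing routes of repair were read from their own lists. Of 6 alternative end joining genes tested, 0 passed in edgeR. Polq, also on that list, was not among the 15168 genes given, so its level is unknown here. At an unadjusted p under 0.05, 1 was lower and 1 higher, against 4101 of all 11878 tested genes in either direction. The ligase genes Lig3 at 0.67 (SE 0.29, adjusted p 0.138) and Lig1 at -0.82 (SE 0.32, adjusted p 0.0988) were the highest and lowest. Of 14 homologous recombination genes tested, 2 fell and 0 rose, with a median of -0.56. Rpa1, which encodes the large subunit of the single-strand binding protein, fell from 26.7 ± 2.78 to 12.5 ± 2.54 CPM (log2 fold change -1.10, SE 0.20, adjusted p 0.00914 by edgeR). This call was lost without young C (0.0538). Of the antigen receptor genes, Dntt was under the filter, and Rag1 and Rag2 were not among the 15168 genes given.

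**Figure D4:**
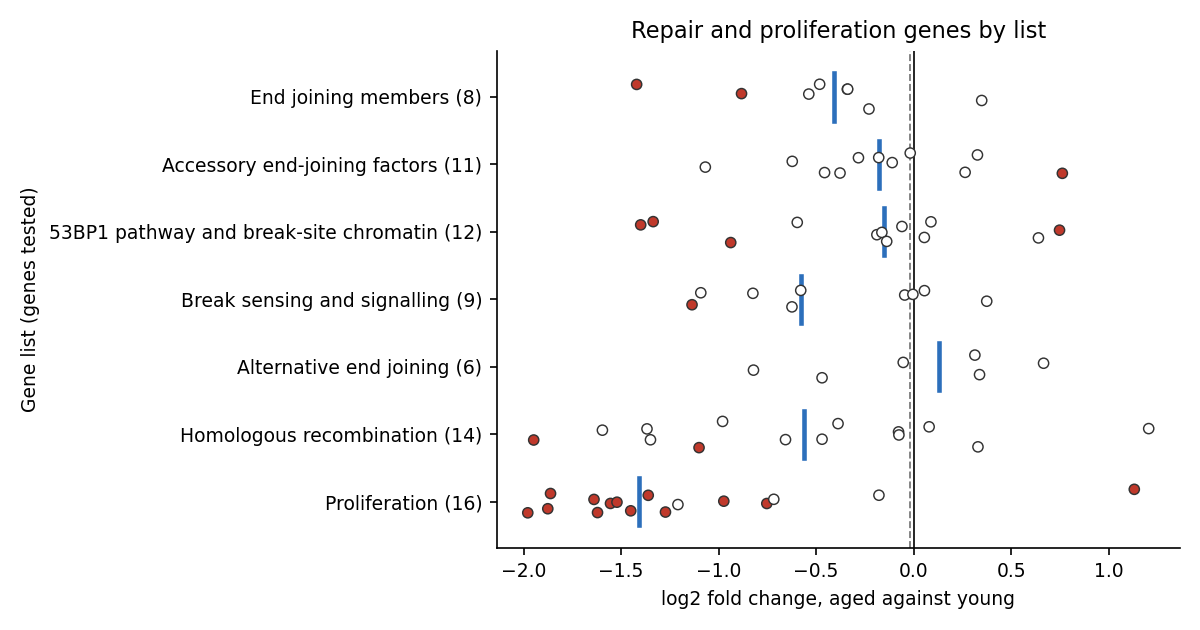
Log2 fold change of aged against young macrophages for each tested gene of 7 lists, with filled points at an adjusted p under 0.05 by edgeR, blue bars at the list median and a dashed line at the median of all tested genes. The end joining members have a median of -0.41 and the proliferation list one of -1.41, and the vertical spread of points carries no value.

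Other measures moved between the same groups. Of 16 proliferation genes, 12 fell and 1 rose, the latter being Mki67 (log2 fold change 1.13, SE 0.33, adjusted p 0.0412 by edgeR). The summed level of the list was 351, 211 and 311 CPM in young samples A, B and C and 155, 172 and 148 CPM in aged samples A, B and C. Among the young samples, young B had the lowest sum, the highest Xrcc6 and Dclre1c, and the lowest Lig4 and Xrcc5. The part of cell proliferation in the fall of either gene was not tested. In bulk samples, fewer cells of a type and less RNA per cell cannot be told apart.

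**Figure D5:**
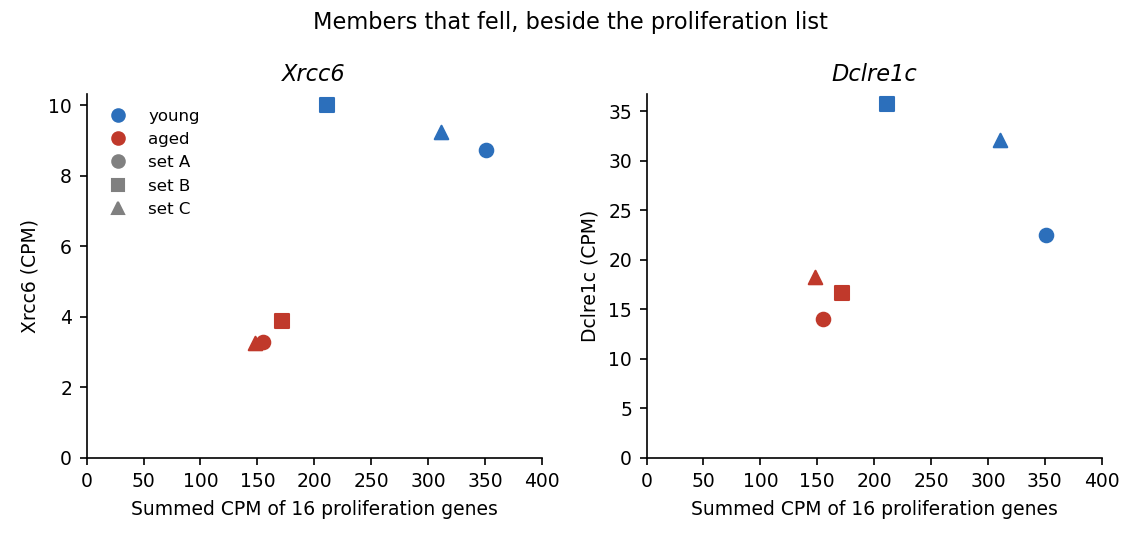
Xrcc6 (left) and Dclre1c (right) in CPM against the summed CPM of the 16 proliferation genes, with 1 point for each of 6 samples, colour for the group and symbol for the set letter. Young B has the lowest sum of the young samples, 211 CPM, and the highest level of both genes, 10.0 and 35.7 CPM.

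All 9 macrophage markers were detected, with summed levels of 29150 to 44130 CPM in young and 20860 to 25920 CPM in aged samples. Most of that sum was Lyz2, at 29800 ± 7890 CPM among young and 18600 ± 2600 CPM among aged samples (adjusted p 0.0753 by edgeR). Itgam (CD11b) rose (log2 fold change 0.99), Adgre1 (F4/80) and C1qa fell (-0.69 and -1.09), and Fcgr1 (CD64) and the other 5 did not pass. Neutrophil markers summed to 651 to 1008 CPM in young and 737 to 1362 CPM in aged samples, with 4 of 11 higher and 0 lower. B cell markers summed to 4.62 to 12.9 CPM in young and 2.61 to 4.08 CPM in aged samples. The highest sum was that of young B, the highest sample for 6 members. Nearly all of that list was Cd79b, which fell (log2 fold change -1.58, adjusted p 0.0308 by edgeR), and the defining markers Cd79a and Ms4a1 were each under 1 CPM on average. T and NK cell markers summed to 5.40 to 9.97 CPM in young and 7.20 to 10.2 CPM in aged samples. Dendritic cell markers summed to 54.6, 21.8 and 16.1 CPM in young samples A, B and C and to 93.8, 30.3 and 39.6 CPM in aged samples A, B and C, with 0 of 5 tested passing (0 lower and 1 higher at an unadjusted p under 0.05 in edgeR). The highest of these sums was that of aged A, the lowest sample for 5 members. Keratinocyte markers summed to 1.96, 112 and 1.67 CPM in aged samples A, B and C, all above the young sums of 0.587 to 0.727 CPM, and Krt14, the only one of them tested, passed as higher (adjusted p 0.0259 by edgeR). Fibroblast markers summed to 119 CPM in aged B, against 12.4 to 41.0 CPM in the other 5 samples. Of 5 tested, 0 passed and 0 were at an unadjusted p under 0.05 in edgeR. Over all 11878 tested genes, 4101 passed at that unadjusted threshold. Without aged B the fall of Xrcc6 and that of Dclre1c were both kept. The neutrophil sum was higher in aged A and aged C, which stay in that fit, than in aged B. Without aged A or young B the call of Xrcc6 was kept. That of Dclre1c was lost (log2 fold change -0.78 and -0.73, adjusted p 0.0582 and 0.0801 by edgeR). The part of other cell types in the values of the members was not tested.

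Exons of 4 members overlap those of a gene on the opposite strand, and the sources used here do not say whether reads were assigned by strand. Xrcc6 shares 344 bases with Desi1, which measured 12.4 ± 1.15 CPM among young and 15.2 ± 1.14 CPM among aged samples. Dclre1c shares 357 bases with Suv39h2 (log2 fold change -0.45, adjusted p 0.460 by edgeR), Xrcc4 shares 112 with Tmem167 and Trp53bp1 shares 2130 with Tubgcp4. Values of these genes carry that uncertainty.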

How the data were processed

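RNA of sorted Day 3 wound macrophages from 3 young and 3 aged samples was amplified with a SMART-Seq v4 kit and sequenced as paired-end reads. The authors aligned the reads with STAR 2.7.3a to mm10 and assigned them in Partek Flow to the transcripts of Ensembl 102. The authors deposited the expected counts per gene that this gave, with no normalisation. Their second table, which holds the fold changes and p-values of their own DESeq2 comparison, was not used, nor was the remaining file.

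Expected counts were rounded and tested in edgeR 4.0.16 (R 4.3.3) with TMM scaling, filterByExpr by age, a quasi-likelihood test between the age groups and Benjamini-Hochberg adjustment over 11878 genes. Totals ran from 15270103 to 17927483 counts, so 1 count was worth 0.0553 to 0.0701 CPM. No 2 samples of a group agreed within sampling noise. CPM uses TMM-scaled library sizes, and log2 ratios a prior count of 2. Fits were tested on simulated data.

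Alternatives were DESeq2 1.42.0, limma 3.58.1 (voom with quality weights), other size factors, filters and thresholds, unrounded counts, length and GC trends, a replicate block and leaving out each sample. The named genes were the 9 members and, from each pathway list, genes that passed (at most 5) with the highest and lowest; Shld2 was added after its value was seen. Some genes of the homologous recombination list are not reported here by name. Members, lists and motifs were chosen with earlier results of these data known. Coordinates of genes are taken from the annotation deposited with the counts (mm10).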

Additional observations from a re-analysis of the deposited data

How the results depend on the processing

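The fall of Xrcc6 stayed under the threshold in all 15 alternative fits (log2 fold change -1.49 to -1.33, adjusted p up to 0.0446), and that of Dclre1c in 11 (-1.05 to -0.73, adjusted p up to 0.0992). The number of members that passed was 2 throughout, apart from fits that left out 1 sample, which gave 1 to 2. No other member passed in any alternative, and leaving out 1 sample moved their log2 fold changes between -1.14 and -0.04 for Prkdc, 0.07 and 0.68 for Lig4, -0.53 and -0.18 for Xrcc4, -0.81 and -0.37 for Nhej1, -0.45 and -0.04 for Trp53bp1, and -0.73 and -0.24 for Rif1. Over all genes, 2103 passed; limma-voom gave 3646, an unadjusted threshold 4101 and leaving out 1 sample 218 (without young C) to 2702. With the 2-fold limit 1044 were called, 29 in a test against a fold change of 2, and 213 to 1503 on leaving out 1 sample. Whether the set letters pair the samples could not be settled with 3 samples in each group. Same-letter deviations correlated at 0.181, -0.02 and 0.114 for A, B and C. Aged A and aged C correlated best with their own letter, and aged B with young C (0.138). With the letter as a replicate block the counts were 2 members, 2114 genes and 1055 called genes. With that block the calls of Shld3 (adjusted p 0.0507) and Wrn (0.0625) were lost, and with length and GC trends added those of Shld3 (0.0554), Mad2l2 (0.0517) and Wrn (0.200). The ratio of Nhej1 to Xrcc4 ran from -0.465 to 0.001 on leaving out 1 sample and that of Dclre1c to Prkdc from -0.665 to 0.123, both changing sign without aged B. Those of Prkdc to the Ku genes and Rif1 to Trp53bp1 ran from 0.159 to 0.583 and from -0.474 to -0.116. The median of the homologous recombination genes moved from -0.56 to -0.24 with at least 10 counts in every sample, that of the break sensing genes from -0.58 to -0.27 without aged A, and that of the 53BP1 pathway from -0.15 to -0.02 without young A. Counts were low for Prkdc and Lig4, at 17.0 and 24.5 per sample on average, and for Xrcc5, with 23 young and 20 aged counts in all.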
